A study of Mus musculus with 10 samples.

Results

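The cAMP phosphodiesterase genes described here are Pde4b, Pde4d, Pde3b, Pde7a and Pde10a, and their members are the accessible regions that overlap one of the 5 gene bodies or lie within 50 kb of a gene's transcription start. Of the 94823 regions in the table, 180 met that rule, 48 at Pde4b, 59 at Pde4d, 27 at Pde3b, 28 at Pde7a and 18 at Pde10a. The genes were chosen with earlier values of these data known. Pde4b was selected on a cluster of regions seen in SKG and not in BALB/c libraries, and Pde10a on its difference between the subsets (higher in iNKT2 cells), so those values are given as descriptions with no p-value. All but 12 of the regions lay inside the gene bodies. The region inside the window that lay farthest upstream of a start was 23.3 kb from that of Pde4d and had mean levels of 30.8, 46.9, 2.84 and 4.95 CPM (insertions per 1000000 insertions of the scaled library) in BALB/c iNKT1, SKG iNKT1, BALB/c iNKT2 and SKG iNKT2 cells. The nearest region beyond the window was 54.2 kb upstream of Pde3b, with means of 0.569, 0.482, 1.05 and 0.856 CPM in the same order.

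Cyclic AMP is made by adenylyl cyclases when a receptor coupled to the stimulatory G protein is engaged, and phosphodiesterases are the enzymes that break it down. It acts through protein kinase A and the Epac exchange factors. In T cells, protein kinase A held at the membrane by anchoring proteins activates the kinase Csk, which restrains Lck at the T cell receptor, so the breakdown of cAMP bears on receptor signalling. Pde4b and Pde4d encode cAMP-specific enzymes of the rolipram-sensitive PDE4 family, which is recruited to the receptor during T cell activation. Pde3b encodes a membrane-bound enzyme that is inhibited by cGMP, Pde7a a high-affinity cAMP-specific enzyme of lymphocytes, and Pde10a an enzyme that cleaves both cAMP and cGMP and is best known from the striatum. Long genes of this family carry many alternative starts, each giving an isoform with its own amino end.

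Open chromatin was mapped by ATAC-seq, which counts where a transposase cuts accessible DNA. Invariant natural killer T (iNKT) cells were sorted from the thymus as CD27+ cells, which were iNKT1 cells when CD122+ and iNKT2 cells when CD122-. Donors were BALB/c mice or SKG mice, which have the BALB/c background and carry in every cell a hypomorphic mutation of Zap70, the kinase that relays the T cell receptor signal. The mice were 8 to 10 weeks old and untreated, by the study's methods. There were 2 BALB/c iNKT1, 2 SKG iNKT1, 3 BALB/c iNKT2 and 3 SKG iNKT2 libraries. The labels do not say whether replicates came from separate animals, so p-values measure the spread between these libraries, which may be technical. Because the mutation is a point mutation, accessibility gives no check of the genotype labels. In such bulk data, fewer cells with an open region and less opening per cell cannot be told apart.

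The sequences printed here are the 300 bases at the centre of 6 intronic regions that carry the main differences. They were read from the GRCm38.p6 reference genome (mm10), and the sequence of the BALB/c and SKG donors was not examined. The 3 Pde4b regions, numbered 17, 18 and 19 along the gene, were open in SKG libraries and almost without insertions in BALB/c libraries. Pde10a region 12 had the largest subset difference of its gene, Pde10a region 10 was 1 of 2 regions nearly without insertions in SKG iNKT2 cells, and Pde7a region 4 had the largest subset difference of its gene, toward iNKT1 cells. Capitals mark matches, on either strand, to 9 short motifs: CRE (TGACGTCA), AP-1 (TGANTCA), NFAT (GGAAAA), Egr (GTGGGNG), NF-kB (GGAANTTCC), Runx (TGTGGT), Ets (CCGGAAG), T-box (GGTGTGA) and Tcf (CTTTGA). No marked match overlaps another.
Pde4b region 17, chr4:102517166-102517465, plus strand: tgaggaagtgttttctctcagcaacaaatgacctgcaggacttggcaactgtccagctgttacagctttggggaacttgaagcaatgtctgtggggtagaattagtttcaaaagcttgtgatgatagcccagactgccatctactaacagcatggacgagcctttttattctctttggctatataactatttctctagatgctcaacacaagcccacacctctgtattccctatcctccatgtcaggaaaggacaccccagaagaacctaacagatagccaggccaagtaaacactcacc
Pde4b region 18, chr4:102518372-102518671, plus strand: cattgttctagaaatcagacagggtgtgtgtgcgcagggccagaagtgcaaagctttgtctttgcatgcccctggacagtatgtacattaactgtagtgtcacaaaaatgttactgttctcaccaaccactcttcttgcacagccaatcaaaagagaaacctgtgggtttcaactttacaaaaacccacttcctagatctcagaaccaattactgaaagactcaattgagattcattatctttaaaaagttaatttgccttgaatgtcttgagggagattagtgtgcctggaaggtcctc
Pde4b region 19, chr4:102519024-102519323, plus strand: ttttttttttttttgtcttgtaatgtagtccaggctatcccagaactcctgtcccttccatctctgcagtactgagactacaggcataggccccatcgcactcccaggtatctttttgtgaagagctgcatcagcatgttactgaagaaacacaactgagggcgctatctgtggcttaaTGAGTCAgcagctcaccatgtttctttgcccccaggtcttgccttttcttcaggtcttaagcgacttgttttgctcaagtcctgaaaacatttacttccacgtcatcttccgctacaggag
Pde10a region 12, chr17:8757840-8758139, plus strand: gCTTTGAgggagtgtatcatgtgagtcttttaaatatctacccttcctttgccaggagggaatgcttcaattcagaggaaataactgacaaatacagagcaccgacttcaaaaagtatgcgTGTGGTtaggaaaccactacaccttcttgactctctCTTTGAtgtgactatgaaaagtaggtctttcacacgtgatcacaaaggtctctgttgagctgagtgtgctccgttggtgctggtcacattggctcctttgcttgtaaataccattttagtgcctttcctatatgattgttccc
Pde10a region 10, chr17:8642048-8642347, plus strand: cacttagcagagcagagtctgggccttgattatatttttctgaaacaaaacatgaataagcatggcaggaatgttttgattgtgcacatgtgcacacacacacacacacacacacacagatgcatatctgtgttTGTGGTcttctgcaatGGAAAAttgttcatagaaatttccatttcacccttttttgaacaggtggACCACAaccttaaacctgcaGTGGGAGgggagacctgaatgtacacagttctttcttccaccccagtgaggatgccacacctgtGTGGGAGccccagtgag
Pde7a region 4, chr3:19253888-19254187, plus strand: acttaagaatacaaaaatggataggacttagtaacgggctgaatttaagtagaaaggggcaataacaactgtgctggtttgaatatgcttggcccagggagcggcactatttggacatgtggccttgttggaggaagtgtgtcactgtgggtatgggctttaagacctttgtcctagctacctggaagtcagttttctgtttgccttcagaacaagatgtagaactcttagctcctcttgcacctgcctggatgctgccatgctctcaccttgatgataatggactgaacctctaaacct

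Regions 17 and 18 of Pde4b held no match to any of the 9 motifs, and region 19 had 1 AP-1 match. Pde10a region 12 held 2 Tcf matches and 1 Runx match, and Pde10a region 10 had 1 NFAT, 2 Egr and 2 Runx matches. The window of Pde7a region 4 had none. Among all 94823 regions, windows of this length held an AP-1 match in 10.6%, a Tcf match in 21.5%, a Runx match in 30.3%, an NFAT match in 21.9% and an Egr match in 28.7%. Over the 180 member regions the shares were 10%, 26.7%, 32.2%, 25.6% and 22.2%. The cAMP response element CRE was found in 2 of the 180 windows (1.11%, against 0.904% of all regions). The other shares were 1.67% against 0.71% for NF-kB, 3.33% against 4.94% for Ets and 2.78% against 5.48% for T-box. These matches describe letters of the reference genome in a window, and neither bound sites nor the donors' own sequence.

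The libraries held 14988590 to 36342635 insertions in the listed regions, with a median of 40 to 120 per region, and replicates of a group correlated at Pearson's r of 0.954 to 0.981 across regions on the log2 scale. In both iNKT2 groups, replicate 1 was the library least like the others. At their promoters, the iNKT1 markers had summed levels of 279 to 289 CPM in BALB/c iNKT1, 306 to 310 in SKG iNKT1, 93.1 to 97.4 in BALB/c iNKT2 and 95.1 to 135 in SKG iNKT2 libraries. Promoters of the 5 iNKT2 markers summed to 211 to 253 CPM in iNKT1 and 212 to 274 in iNKT2 libraries, which overlap. Gata3 mainly set that sum and overlapped between the subsets (135 to 166 against 106 to 173). So did Zbtb16 (28.9 to 34.3 against 21.6 to 39.8) and Il4 (21.4 to 37.1 against 17.7 to 36.4). Il17rb (6.74 to 9.26 against 15.1 to 18.9) and Ccr7 (13.6 to 20.2 against 21.5 to 50.6) were higher in every iNKT2 library. Markers of a further subset, iNKT17 (Il23r, Il17a and Ccr6, 3 of 3 with a promoter region), summed to 0.321 to 0.835 CPM in iNKT1, 11.8 to 17.4 in BALB/c iNKT2 and 7.87 to 10.7 in SKG iNKT2 libraries. Of the 3, Il17a was lower in SKG iNKT2 (1.13 to 2.63) than in BALB/c iNKT2 libraries (6.59 to 9.76), Ccr6 higher (2.38 to 3.03 against 0.66 to 1.08), and Il23r overlapped. Il17a and Ccr6 were at 0 in 1 SKG iNKT1 library each, and none of the 3 was at 0 in an iNKT2 library. The part of such cells in the subset and genotype differences below was not tested. No B cell marker and neither Rag gene had a promoter region. In the order BALB/c iNKT1, SKG iNKT1, BALB/c iNKT2 and SKG iNKT2, mean promoter levels were 0.481, 1.57, 0.314 and 0.252 CPM for Cd8a, 1.41, 2.92, 0.514 and 0.348 for Itgam of myeloid cells, and 2.21, 0.482, 0.0297 and 0.0549 for Ncr1 of NK cells, and Epcam of epithelium had 6.88 to 12.3 in all groups; their part in the results was not tested either.

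In each comparison a region was called when edgeR's quasi-likelihood test gave an adjusted p under 0.01 over all regions and the change was at least 4-fold. For BALB/c iNKT2 against BALB/c iNKT1 cells, 36 of the 180 regions were called (20%, against 21.9% of all regions), 25 higher (15.5% of all regions) and 11 lower (6.36%). The SKG comparison of the same subsets called 30 (16.7%, against 17.1%), 24 higher (10.2%) and 6 lower (6.96%). Between the genotypes, 2 regions were called in iNKT1 cells (1.11%, against 1.01%), both higher in SKG (0.281%) and none lower (0.732%). In iNKT2 cells 7 were called (3.89%, against 4.99%), 3 higher (0.252%) and 4 lower (4.73%). These totals hold values the genes were chosen on: Pde10a supplied 14 of the 25 and 7 of the 24 regions higher in iNKT2 cells, and the Pde4b cluster all regions higher in SKG, so nothing is read from them for the 5 genes as a whole. The interaction, which asks whether the genotype change differed between the subsets, called 0 of 180 regions (0.529% of all regions) in edgeR's test, 44 had an unadjusted p under 0.05, and DESeq2 and voom also called 0. Its total also holds values that Pde4b and Pde10a were chosen on. The subset and genotype comparisons share libraries in pairs, so their values for 1 region are not independent. Without SKG iNKT1 replicate 1, the calls higher in SKG iNKT2 than in SKG iNKT1 cells numbered 12.

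**Figure D1:**
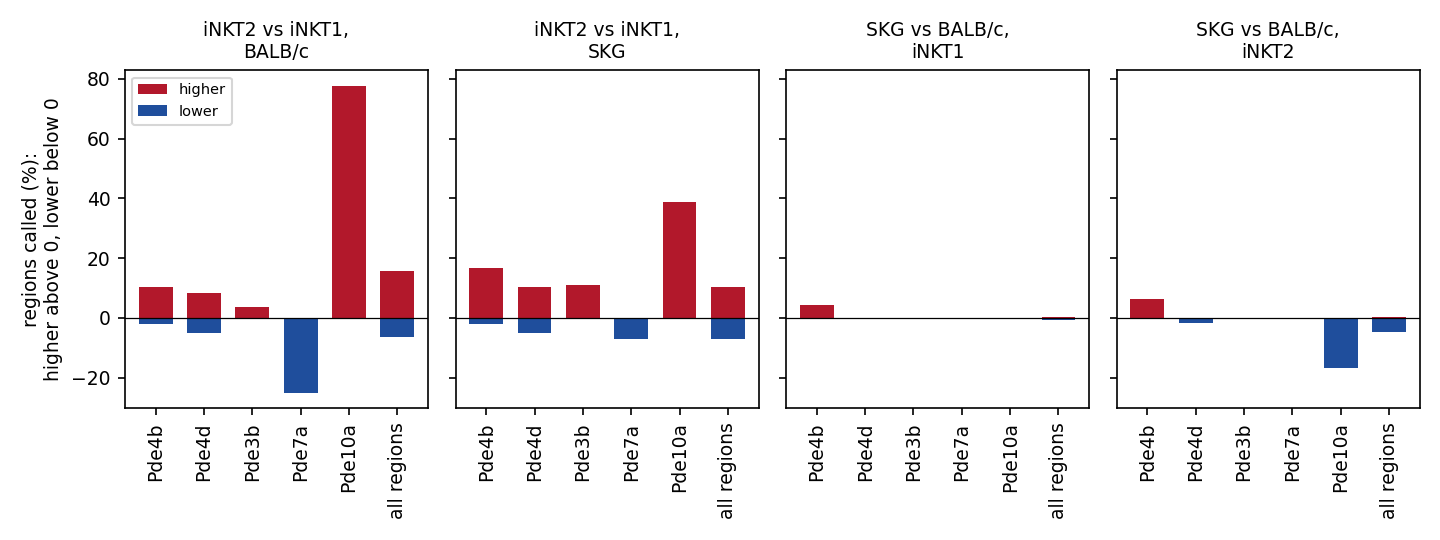
Share of each gene's regions called in the 4 pairwise comparisons, in percent, with calls higher in the first-named group above 0 and calls lower below 0, beside the share of all 94823 regions. In BALB/c iNKT2 against iNKT1 cells, 14 of 18 Pde10a regions were higher and 7 of 28 Pde7a regions lower; the Pde10a subset bars and the Pde4b genotype bars show values the genes were chosen on.

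Each gene's insertions, summed over its regions and divided by the covered length, gave Pde7a, Pde4d and Pde3b the same order of group means (SKG iNKT1, BALB/c iNKT1, SKG iNKT2, BALB/c iNKT2) and Pde4b and Pde10a other orders. Pde7a had the highest level of the 5 genes in iNKT1 cells, at 34.0 ± 0.034 CPM per kb in BALB/c (SD, n = 2) and 36.3 ± 1.69 in SKG (n = 2), and lower levels in iNKT2 cells, at 19.1 ± 0.297 in BALB/c (n = 3) and 22.7 ± 2.03 in SKG (n = 3). Pde4d stood at 26.5 ± 0.285 CPM per kb in BALB/c iNKT1, 26.9 ± 1.34 in SKG iNKT1 and 26.1 ± 0.518 in SKG iNKT2 cells, which did not differ beyond their spread, and at 21.3 ± 1.14 in BALB/c iNKT2 cells. Pde4b was highest in SKG iNKT2 cells at 21.2 ± 0.567 CPM per kb, followed by SKG iNKT1 at 19.6 ± 0.703, BALB/c iNKT1 at 18.4 ± 0.148 and BALB/c iNKT2 at 16.1 ± 0.447, and no neighbours in that order overlapped. Pde3b had 17.5 ± 0.526 CPM per kb in SKG iNKT1, 16.1 ± 0.359 in BALB/c iNKT1, 15.3 ± 1.79 in SKG iNKT2 and 13.4 ± 1.58 in BALB/c iNKT2 cells, and SKG iNKT2 libraries overlapped all 3 other groups. Pde10a had the lowest mean of the 5 genes in every group, although in BALB/c iNKT2 cells it was below Pde3b in replicate 1 alone (12.7 against 15.1 CPM per kb) and above it in replicates 2 and 3. Its levels were 12.9 ± 0.671 CPM per kb in BALB/c iNKT2, 6.06 ± 0.446 in SKG iNKT2, 2.34 ± 0.099 in BALB/c iNKT1 and 1.37 ± 0.019 in SKG iNKT1 cells, with no overlap between neighbours in that order.

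**Figure D2:**
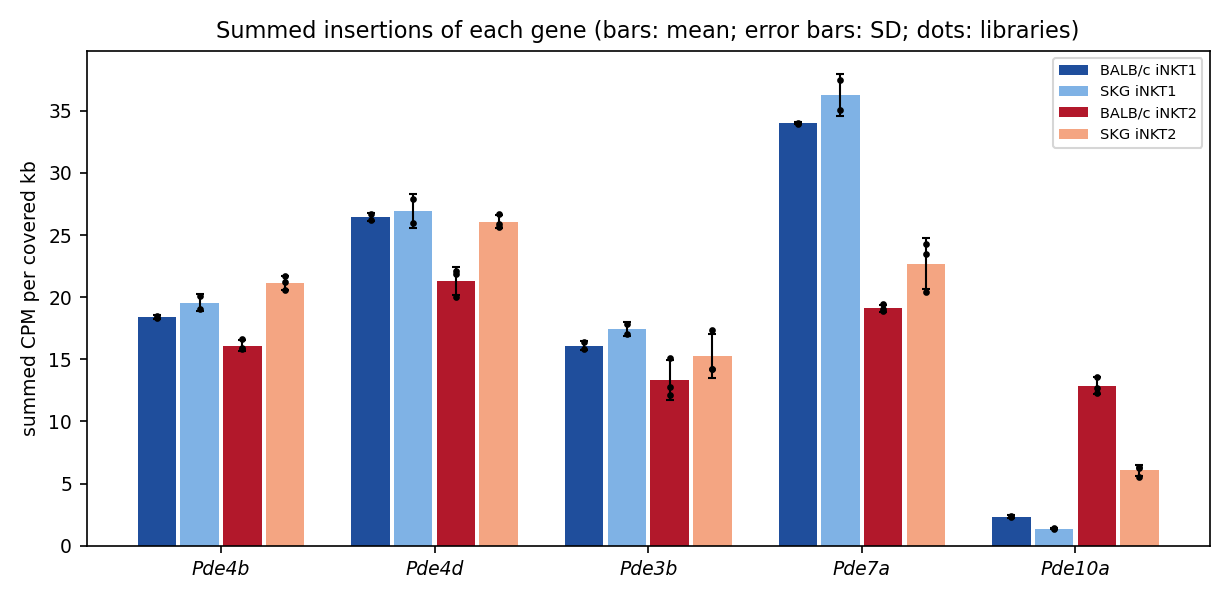
Summed insertions of each gene in CPM per kb of covered length, as bars for the group mean, error bars for the SD and dots for the libraries. Pde7a is higher in the iNKT1 groups, Pde10a in the iNKT2 groups, where BALB/c cells reach 12.9 and SKG cells 6.06 CPM per kb.

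Pde4b spans chr4:102087543-102607259 on the plus strand (519.7 kb). Its 3 regions that were open in SKG libraries lay next to each other at chr4:102516947-102519323, within 2377 bp of an intron, between 51 and 53 kb upstream of the start of the short isoform Pde4b-203. Region 17 (chr4:102516947-102517685) had 24.7 and 25.1 CPM in SKG iNKT1 libraries, against 0 and 0.22 in BALB/c iNKT1. Its level was 0 in all 3 BALB/c iNKT2 libraries and 8.38, 8.04 and 8.83 CPM in SKG iNKT2. The groups were far apart in both subsets, and SKG iNKT1 libraries stood above SKG iNKT2 libraries.

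Region 18 (chr4:102518346-102518697) had no insertion in any of the 5 BALB/c libraries. It had 6.68 and 8.34 CPM in SKG iNKT1 and 4.43, 4.87 and 4.58 in SKG iNKT2 libraries. Region 19 (chr4:102519024-102519323) also had no insertion in BALB/c libraries, and 0.642 and 0.321 CPM in SKG iNKT1 and 0.802, 2.43 and 0.809 in SKG iNKT2 libraries. All 5 SKG libraries therefore had insertions in each of the 3 regions.

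A difference was termed all-or-none where the libraries of one group held at most 3 insertions in sum and the mean of the other group was at least 1 CPM, and graded where a called region did not meet that. Of the 180 regions, 2 were all-or-none between the BALB/c subsets, 5 between the SKG subsets, 1 between the genotypes in iNKT1 and 5 in iNKT2 cells. The first count rose to 8 and 5 without BALB/c iNKT1 replicate 1 or 2, the second to 14 without SKG iNKT1 replicate 2, and the third to 2 without BALB/c iNKT1 replicate 2 or SKG iNKT1 replicate 1 and to 3 without SKG iNKT1 replicate 2, since fewer insertions then remained in the low group or 1 library set the mean. By this rule all 3 clustered Pde4b regions were all-or-none in iNKT2 cells. Against the level that 3 insertions in the group would give, SKG iNKT2 cells were at least 264-fold higher in region 17, at least 145-fold in region 18 and at least 42.2-fold in region 19. In iNKT1 cells region 18 was all-or-none, at least 141-fold higher in SKG. The 5 insertions of BALB/c iNKT1 kept region 17 just outside the rule there, with a ratio of 280 (95% exact counting interval 119 to 864). Region 19 stayed below 1 CPM in SKG iNKT1 cells. Floors and intervals cover counting error only. Over the whole table, all-or-none regions higher in SKG were rare, 10 in iNKT1 (0.0105%) and 7 in iNKT2 cells (0.00738%), of which the Pde4b cluster supplied 1 and 3. Regions with at most 3 insertions over the 5 BALB/c libraries and at least 1 CPM in both SKG groups numbered 3, region 18 among them, and 6 with at most 10 insertions, regions 17 and 18 among them.

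**Figure D3:**
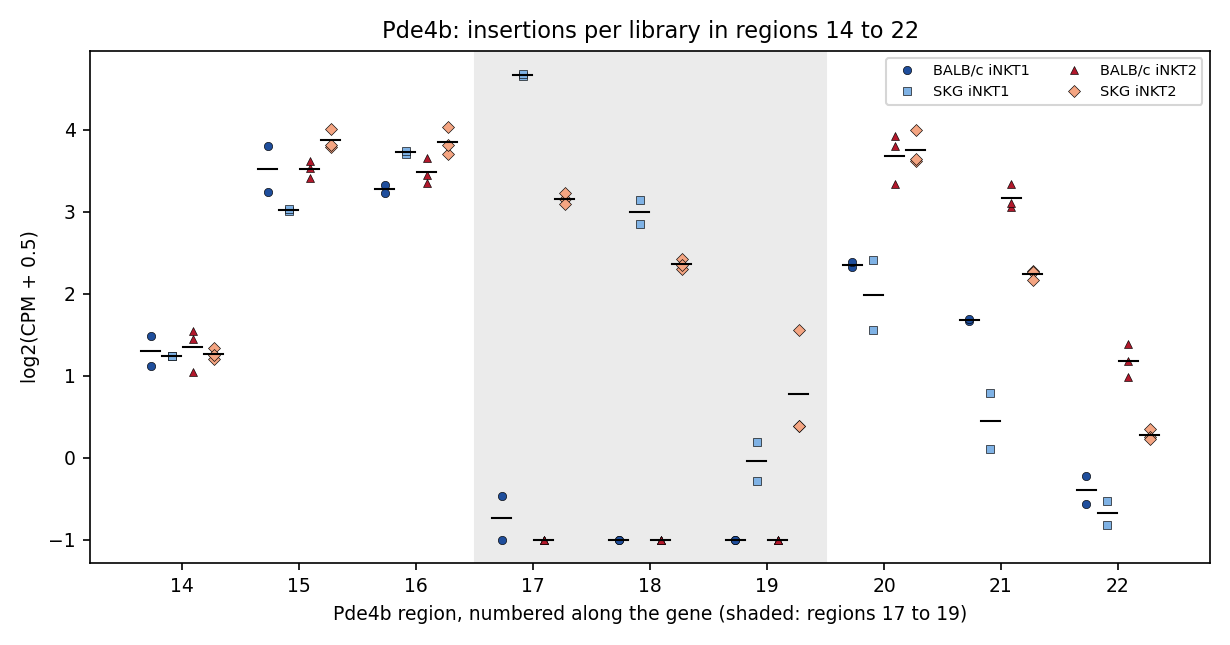
Level of each library, as log2(CPM + 0.5), in the 3 Pde4b regions of the SKG-only cluster (17 to 19, shaded) and the 3 nearest regions on each side; points are libraries and bars group means. BALB/c libraries sit at or near the floor of -1 in the shaded regions and well above it in regions 14 to 16.

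The 3 regions to the left of the cluster and the nearest on its right had insertions in all 10 libraries at 1.57 CPM or more. On the left, 5099 bp away, region 16 had 9.50 and 8.86 CPM in BALB/c iNKT1, 12.5 and 12.9 in SKG iNKT1, 10.4, 12.1 and 9.69 in BALB/c iNKT2, and 12.5, 13.6 and 15.8 in SKG iNKT2 libraries, log2 changes with genotype of 0.47 and 0.37. Regions 15 and 14 changed by -0.55 and -0.08 in iNKT1 and by 0.36 and -0.13 in iNKT2 cells. To the right the next region, number 20, began after a gap of 38525 bp and changed by -0.35 and 0.06, whereas regions 21 and 22 were lower in SKG, by -1.58 and -1.09 in iNKT1 and by -1.01 and -1.31 in iNKT2 cells. None of these 6 neighbours was called between genotypes. In region 16 every SKG library stood above every BALB/c library, by a margin of 12.5 against 12.1 CPM, and no neighbour was close to 0 in BALB/c libraries of both subsets as the cluster was.

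On the scale of log2(mean CPM + 0.5), the 3 clustered regions were higher in SKG by 5.38, 4.0 and 0.97 in iNKT1 and by 4.16, 3.36 and 1.89 in iNKT2 cells. The 45 Pde4b regions outside the cluster ran from -1.19 to 0.45 in iNKT1 and from -0.94 to 1.41 in iNKT2 cells on the same scale. Of them, edgeR called 0 between genotypes in either subset (1.01 and 4.99% of all regions). An unadjusted p under 0.05 was reached by 6 and 26 of the 45, and by 16196 and 35536 of all 94823 regions. DESeq2 called none of the 45 either, and voom with quantile normalization called 3 higher in SKG iNKT2 cells. Their fitted log2 changes had medians of -0.05 and 0.42, and 40 and 37 of the 45 were within 1 on that scale. Over all regions the medians were -0.03 and 0.01. In iNKT2 cells 42 of the 48 regions had a positive change, as did 48232 of all 94823 regions. The 42 include the 3 clustered regions that the gene was chosen on. An adjusted p under 0.01 was reached by 7 of the 45 regions outside the cluster toward SKG and by 1 toward BALB/c. Of all 94823 regions, 3812 and 9619 reached it. The 7 and 1 were all under 4-fold, with the largest log2 change at 1.63 in region 37. The cluster made up 7.55 and 7.57% of the Pde4b insertions in SKG iNKT1 and 2.83 to 3.25% in SKG iNKT2 libraries. Without it the sums were 392 and 412 CPM in SKG iNKT1 against 407 and 411 in BALB/c iNKT1 libraries, which overlap, and 443 to 468 in SKG iNKT2 against 351 to 369 in BALB/c iNKT2 libraries, which do not.

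**Figure D4:**
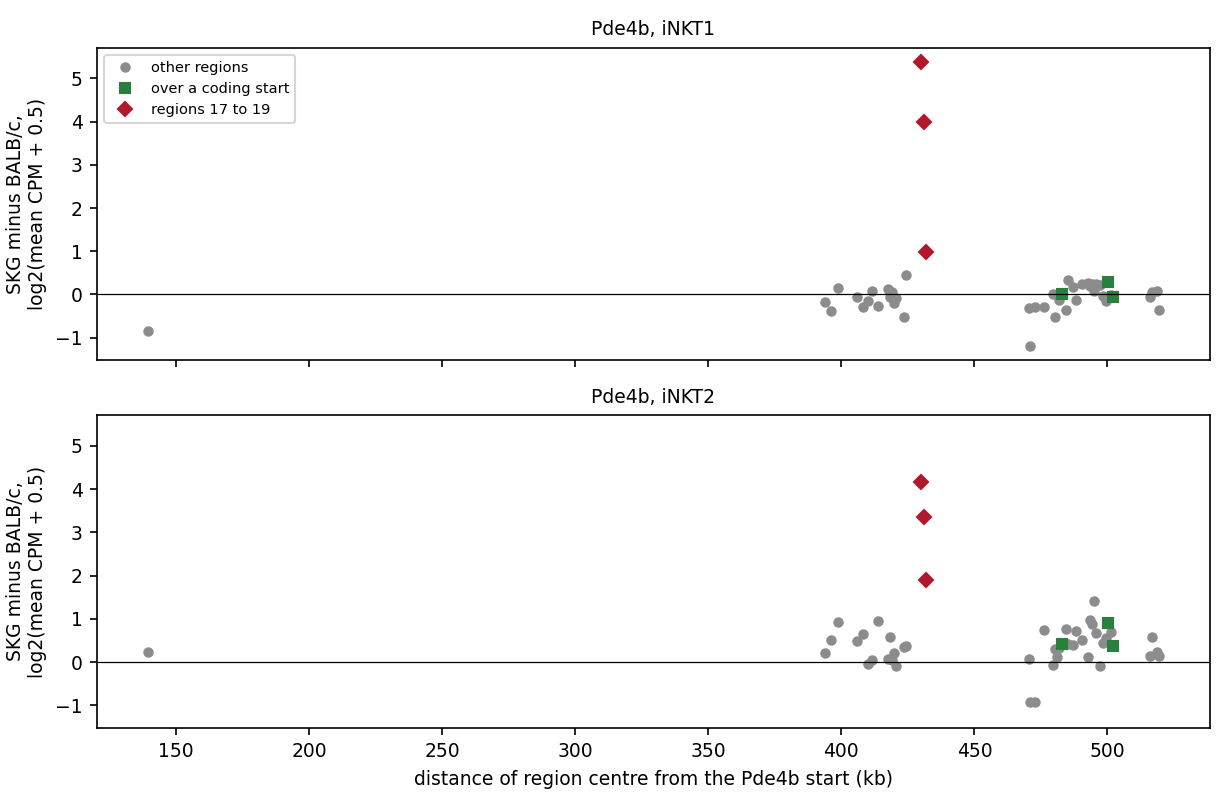
Change with genotype, SKG minus BALB/c in log2(mean CPM + 0.5), of all 48 Pde4b regions against the distance of the region from the gene start in kb, for iNKT1 (top) and iNKT2 cells (bottom). The 3 clustered regions (diamonds) reach 5.38 and 4.16, and the 3 regions over coding starts (squares) lie between -0.06 and 0.91.

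The cluster resembled other regions in base composition. Its 3 regions had a GC content of 45.6, 40.9 and 46.0%, against a median of 48.7% over all regions, and 8.4, 6.2 and 13.7% of their bases were soft-masked as repeats, against a median of 10.3%. Across the 10 libraries, the region whose level followed region 17 most closely on other chromosomes or beyond 1 Mb lay at chr15:74935176-74935595, with Ly6e as the nearest gene start (Pearson's r of log2(CPM + 0.5) 0.994 over 10 libraries, 80735 regions compared). It had mean levels of 0.177 CPM in BALB/c iNKT1, 13.1 in SKG iNKT1, 0.101 in BALB/c iNKT2 and 6.50 in SKG iNKT2 cells. The next regions were nearest to Bpifb4 (r = 0.988), Apol7e (0.978), Eef2kmt (0.977) and Satb1 (0.976). These libraries fall into 4 groups, so such values describe a shared group pattern.

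Between the subsets, Pde4b had called regions on both sides of the cluster. In BALB/c, 5 regions were called higher and 1 lower in iNKT2 cells (12.5% of its regions, against 21.9% of all), and in SKG 8 and 1 (18.8%, against 17.1%). Region 3 (chr4:102483160-102483997) was the most different in BALB/c, with 0.747 and 0.970 CPM in iNKT1 and 12.4, 12.6 and 11.9 in iNKT2 libraries, a log2 change of 3.86 (SE 0.31, adjusted p = 8.1e-08). It had 0.321 and 0.770 CPM in SKG iNKT1 and 12.5, 22 and 18.4 in SKG iNKT2 libraries. The groups did not overlap in either genotype. Region 8 (chr4:102498938-102499266) went the other way, at 5.29 to 5.78 CPM in the 4 iNKT1 libraries and 0.450 to 1.28 in the 6 iNKT2 libraries, with log2 changes of -2.56 (adjusted p = 6.3e-06) and -2.53 (1.6e-05).

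In SKG, 3 Pde4b regions were all-or-none between the subsets (all-or-none higher in 1.42% of all regions). Region 23 (chr4:102563501-102563820) had 0 CPM in both SKG iNKT1 and 2.82, 2.34 and 2.09 in SKG iNKT2 libraries, at least 25.1-fold higher. In BALB/c it was graded, at 0.0896 and 0.132 CPM in iNKT1 and 1.47, 1.45 and 0.783 in iNKT2 libraries. Region 2 (chr4:102481164-102481463) had 0 CPM in both SKG iNKT1 and 0.981, 1.42 and 1.21 in SKG iNKT2 libraries, at least 12.5-fold higher. Region 7 (chr4:102497394-102497693), which overlaps an exon, had 0.0642 and 0.128 CPM in SKG iNKT1 and 1.37, 1.06 and 0.944 in SKG iNKT2 libraries, a ratio of 12.3 (95% interval 4.05 to 60.7). This last call (log2 change 3.50, adjusted p = 0.0011) was lost without either SKG iNKT1 library, at an adjusted p of 0.021 without replicate 1 and of 0.010 without replicate 2. Without SKG iNKT1 replicate 1, 3 Pde4b regions were called higher in SKG iNKT2 cells.

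Pde4d, the longest of the 5 genes (chr13:108449948-109953461, plus strand, 1503.5 kb), had called regions in both directions between the subsets. In BALB/c 5 were called higher and 3 lower in iNKT2 cells (13.6% of its regions, against 21.9% of all), and in SKG 6 and 3 (15.3%, against 17.1%; 3 higher without SKG iNKT1 replicate 1). The same 3 regions were called lower in both genotypes. Region 7 (chr13:109205569-109205939, intron) had log2 changes from iNKT1 to iNKT2 of -3.48 in BALB/c and -3.82 in SKG. The other 2 were a pair upstream of the gene. The first (chr13:108426348-108426687) had 30.8 and 30.8 CPM in BALB/c iNKT1, 45.8 and 47.9 in SKG iNKT1, 3.26, 2.57 and 2.68 in BALB/c iNKT2, and 5.41, 5.01 and 4.45 in SKG iNKT2 libraries. Its log2 changes from iNKT1 to iNKT2 were -3.44 in BALB/c (adjusted p = 4.0e-09) and -3.23 in SKG (5.0e-09). The second (chr13:108426837-108427144) had 5.97 and 5.33 CPM in BALB/c iNKT1 and 0.0794 to 0.0941 in BALB/c iNKT2 libraries, against 7.97 and 9.11 in SKG iNKT1 and 0.446, 0.230 and 0.0674 in SKG iNKT2, with log2 changes of -5.97 (SE 0.40, adjusted p = 1.9e-08) and -4.86 (SE 0.35, 4.7e-08). In both, every iNKT1 library stood above every iNKT2 library.

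Inside Pde4d, region 4 (chr13:108626424-108626818, intron) was the iNKT2 counterpart. It had 0.0299 and 0 CPM in BALB/c iNKT1 and 3.95, 1.98 and 2.84 in BALB/c iNKT2 libraries, all-or-none with 1 insertion in the low group (ratio 161, 95% interval 28.7 to 6400; all-or-none higher in 1.95% of all regions). SKG iNKT1 libraries had none, and SKG iNKT2 libraries had 0.683, 0.0459 and 0.135 CPM. It was the one Pde4d region called between genotypes in edgeR's test, lower in SKG iNKT2 cells by a log2 change of -3.08 (SE 0.56, adjusted p = 0.0010), and leaving out SKG iNKT2 replicate 1 added a call in each subset, 1 in iNKT1 and a second in iNKT2 cells. In region 45 (chr13:109845243-109845755), levels were 1.28 and 1.98 CPM in BALB/c iNKT1, 7.25, 11.2 and 9.56 in BALB/c iNKT2, 0.771 and 0.706 in SKG iNKT1, and 14, 12.2 and 14.9 in SKG iNKT2 libraries. That is a log2 change between subsets of 2.54 in BALB/c (adjusted p = 8.3e-07) and of 4.20 in SKG (6.5e-08); the difference of the changes, 1.66, had an adjusted p of 0.036 and was not called. In iNKT1 cells the smallest p between genotypes belonged to region 3 (chr13:108596994-108597298), at 0.866 and 0.705 CPM in BALB/c and 2.57 and 2.95 in SKG libraries, a log2 change of 1.79 (adjusted p = 0.0051) that falls short of 4-fold.

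Pde3b (chr7:114415281-114539251, plus strand, 124.0 kb) had the fewest calls for its number of regions between the BALB/c subsets. There 1 of its 27 regions was called (3.7%, against 21.9% of all regions) and in SKG 3 (11.1%, against 17.1%). Each was higher in iNKT2 cells, as were 15.5 and 10.2% of all regions. Between genotypes edgeR called 0, against 1.01 and 4.99% of all regions in iNKT1 and iNKT2 cells (2 and 7 had an unadjusted p under 0.05 in iNKT1 and iNKT2 cells, and voom and DESeq2 also called 0). Region 16 (chr7:114449030-114449378) had 0.567 and 1.10 CPM in BALB/c iNKT1 and 4.49, 2.67 and 2.93 in BALB/c iNKT2 libraries, a log2 change of 2.05 (SE 0.37, adjusted p = 0.00019). That change lies just above 4-fold, and the call was lost when replicate 1 of BALB/c iNKT1 (1.65) or of BALB/c iNKT2 (1.80) was left out. Region 25 (chr7:114491826-114492138) led in SKG, with 0.193 and 0.770 CPM in iNKT1 and 3.77, 3.40 and 3.51 in iNKT2 libraries, a log2 change of 2.88 (SE 0.42, adjusted p = 3.8e-05). In BALB/c the same region had 0.687 and 1.01 CPM in iNKT1 and 1.88 to 2.04 in iNKT2 libraries, a log2 change of 1.22. Between genotypes the smallest p in iNKT1 cells was that of region 11 (chr7:114430405-114430762), at 4.24 and 5.03 CPM in BALB/c and 1.93 and 2.44 in SKG libraries, a log2 change of -1.08 (SE 0.37, adjusted p = 0.11). In iNKT2 cells it was that of region 25, with a change of 0.87 (adjusted p = 0.030). The promoter of the gene (region 3, chr7:114414577-114415396), which overlaps the uncharacterized gene 4933406I18Rik, went against these intronic regions, at 42.5 and 36.5 CPM in BALB/c iNKT1 and 26.2, 16.5 and 20.1 in BALB/c iNKT2 libraries, a log2 change of -0.92 (adjusted p = 0.00029) that is under 4-fold.

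Pde7a (chr3:19223108-19311322, minus strand, 88.2 kb) was the gene most tilted toward iNKT1 cells. In BALB/c 27 of its 28 regions had a negative change from iNKT1 to iNKT2 (median -1.29, against 0.06 over all regions). There 7 were called lower (25%, against 6.36% of all regions) and 0 higher (15.5% of all regions). In SKG 24 had a negative change (median -0.87, against 0.14). The 2 called lower (7.14%) were near the share of all regions (6.96%), and 0 were called higher (10.2% of all regions). Region 4 (chr3:19253865-19254210), whose sequence is printed above, had 7.29 and 6.30 CPM in BALB/c iNKT1, 11.1 and 10.2 in SKG iNKT1, 1.13, 0.582 and 0.412 in BALB/c iNKT2, and 1.04, 0.827 and 0.539 in SKG iNKT2 libraries. Its log2 changes were -3.24 (SE 0.31, adjusted p = 4.7e-07) and -3.65 (SE 0.32, 2.6e-07). A stronger region, number 1 (chr3:19239869-19240379), stood at 48.6 and 52.4 CPM in BALB/c iNKT1 and 14.2, 9.52 and 8.33 in BALB/c iNKT2 libraries, and at 59.8 and 63.7 against 13.0, 13.0 and 12.1 in SKG, log2 changes of -2.24 (adjusted p = 8.3e-08) and -2.28 (1.0e-07). The iNKT1 and iNKT2 libraries did not overlap in either region.

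At an adjusted p under 0.01 alone, 19 of the 28 Pde7a regions were lower in iNKT2 cells in BALB/c and 11 in SKG. Of all 94823 regions, 22217 and 16668 were. An upstream region, number 26 (chr3:19319085-19319406), had 35.2 and 33.7 CPM in BALB/c iNKT1, 8.94, 8.86 and 7.75 in BALB/c iNKT2, 35.9 and 42.3 in SKG iNKT1, and 11.8, 9.55 and 7.82 in SKG iNKT2 libraries. Its log2 changes of -2.01 and -1.99 fall on either side of the 4-fold limit. Scaling by library totals left 3 of the 7 BALB/c calls. Between genotypes no Pde7a region was called by edgeR (3 and 11 had an unadjusted p under 0.05 in iNKT1 and iNKT2 cells), and DESeq2 also called 0, whereas voom with quantile normalization called 3 higher in SKG iNKT2 cells. In iNKT2 cells 24 of the 28 had a positive change (median 0.54, against 0.01 over all regions). In iNKT1 cells the smallest p was that of region 11 (chr3:19268528-19268884), at 12.3 and 14.9 CPM in BALB/c and 5.72 and 6.93 in SKG libraries, a change of -1.10 (SE 0.38, adjusted p = 0.12). For iNKT2 cells it was that of region 7 (chr3:19256836-19257185), which overlaps an exon, at 2.95, 2.41 and 1.90 CPM in BALB/c iNKT2 and 6.21, 7.72 and 6.88 in SKG iNKT2 libraries, a log2 change of 1.51 (SE 0.20, adjusted p = 6.5e-05). Both iNKT1 groups were at 7.07 to 8.60 CPM there, and the interaction of 1.49 had an adjusted p of 0.014. The genotype comparison in iNKT2 cells and the BALB/c subset comparison share the 3 BALB/c iNKT2 libraries.

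Pde10a (chr17:8525372-8986648, plus strand, 461.3 kb) was more open in iNKT2 cells along its whole length. In BALB/c all 18 regions had a positive change (median 2.64, against 0.06 over all regions), and 14 were called higher (77.8%, against 15.5% of all regions). In SKG 17 of 18 did (median 1.92, against 0.14), and 7 were called higher (38.9%, against 10.2%), or 4 without SKG iNKT1 replicate 1. These values were among those it was chosen on, and leaving out the 25% of regions with the fewest insertions reduced the BALB/c count to 8. Region 12 (chr17:8757826-8758153, intron) had no insertion in either BALB/c iNKT1 library and 8.19, 9.13 and 9.40 CPM in BALB/c iNKT2 libraries, at least 167-fold higher. In SKG it had 0.0642 CPM in both iNKT1 and 3.83, 8.40 and 4.85 in iNKT2 libraries, a ratio of 85.1 (95% interval 23.4 to 706). It was all-or-none in both genotypes. Region 17 (chr17:8871911-8872295) was all-or-none in SKG, at 0.0642 and 0 CPM against 1.75, 1.42 and 1.48 (ratio 49.7, 95% interval 8.73 to 1980), and just outside the rule in BALB/c, where iNKT1 libraries held 4 insertions (0.0597 and 0.0882 CPM) against 4.74, 4.34 and 4.62 CPM in iNKT2 (ratio 63.8, 24.7 to 235).

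Between genotypes, Pde10a was lower in SKG iNKT2 than in BALB/c iNKT2 cells in 17 of its 18 regions (median -0.92, against 0.01 over all regions). Of the 18, 3 were called lower (16.7%, against 4.73% of all regions). The BALB/c iNKT2 libraries are the high side here and also in the comparison the gene was chosen on. These values are therefore descriptions too, with no p-value. Region 10 (chr17:8641979-8642417) had 5.33, 2.49 and 2.35 CPM in BALB/c iNKT2 and 0, 0 and 0.202 in SKG iNKT2 libraries. That is a log2 change of -6.12 (SE 0.74) and a ratio of 80.0 (95% interval 27.1 to 390) that was all-or-none. Region 11 (chr17:8687783-8688082) had 2.35, 0.873 and 1.57 CPM in BALB/c iNKT2 and 0, 0.0918 and 0 in SKG iNKT2 libraries. Its log2 change was -5.56 and its ratio 54.6 (14.8 to 455). These were the 2 member regions that were all-or-none lower in SKG iNKT2 cells, as were 0.153% of all regions. Next to them, region 9 (chr17:8640764-8641085) was graded, at 4.05, 2.59 and 2.72 against 0.505, 0.276 and 0.270 CPM, a log2 change of -3.05 (SE 0.42). Region 12, the next along the gene, had a log2 change of -0.65 and was not called. The 3 called regions are neighbours. Region 16 (chr17:8867781-8868256), farther along the gene, had 8.66, 7.06 and 8.25 CPM in BALB/c iNKT2 and 1.78, 1.75 and 2.90 in SKG iNKT2 libraries. Its log2 change of -1.93 was just under 4-fold. It was called under 5 alternatives, among them library totals, voom with quantile normalization and leaving out BALB/c iNKT2 replicate 2 or SKG iNKT2 replicate 3. All 3 were among the 25% of regions with the fewest insertions; without that part of the table none of them was tested, and the 1 call was region 16.

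In iNKT1 cells edgeR called no Pde10a region between genotypes (7 had an unadjusted p under 0.05, and DESeq2 and voom also called 0). The smallest p was that of region 2 (chr17:8506070-8506418), upstream of the gene, at 5.73 and 5.73 CPM in BALB/c and 2.38 and 1.99 in SKG iNKT1 libraries, a log2 change of -1.39 (SE 0.23, adjusted p = 0.0017) that is under 4-fold. The same region had 13.5, 12.8 and 14.6 CPM in BALB/c iNKT2 and 7.99, 6.80 and 7.35 in SKG iNKT2 libraries, a change of -0.88. The interaction includes the subset difference that Pde10a was chosen on, so its values are descriptions with no p-value. It gave 0 calls over the 18 regions. For region 10 the difference of the genotype changes was -5.02 (SE 2.29), and at levels of 0 to 0.176 CPM in iNKT1 libraries a difference was not detectable at this depth. Regions elsewhere whose level followed region 12 most closely over the 10 libraries were nearest to Fam83a (Pearson's r 0.998, 80786 regions compared), Kalrn, Gadd45g and A930033H14Rik (each 0.997) and Ptbp2 (0.996).

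**Figure D5:**
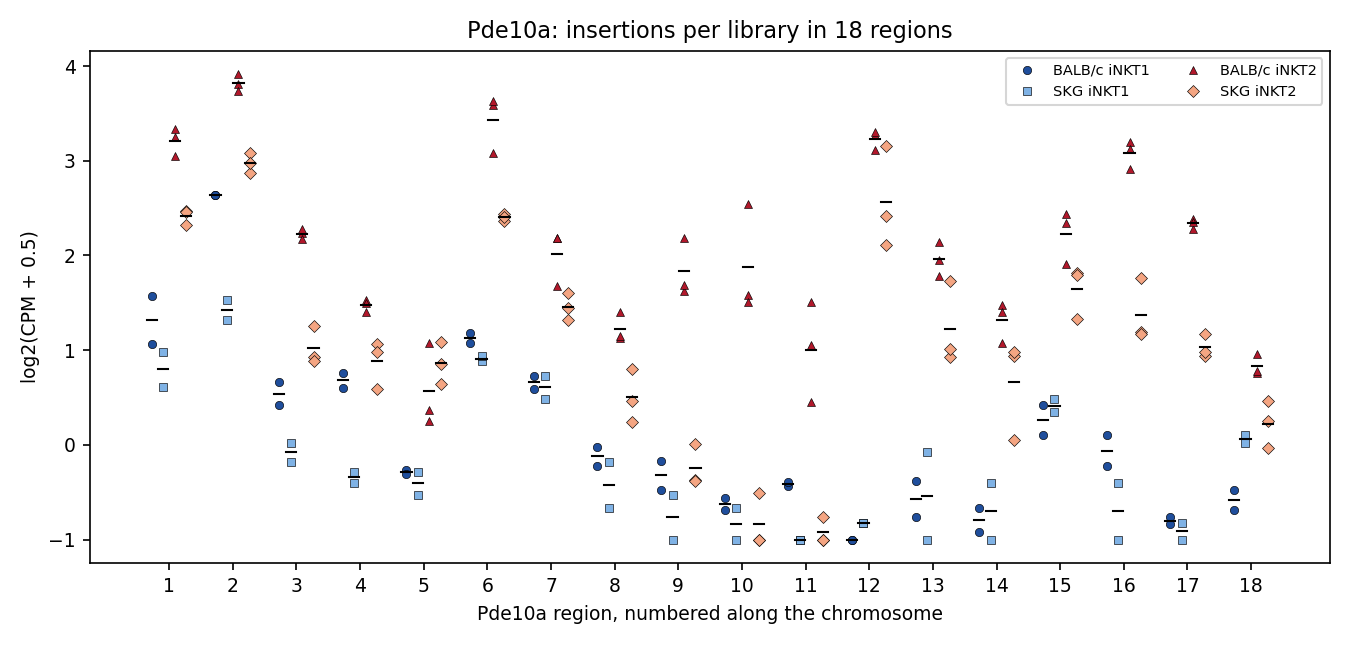
Level of each library, as log2(CPM + 0.5), in the 18 Pde10a regions in chromosome order; points are libraries and bars group means. BALB/c iNKT2 libraries lie above both iNKT1 groups in all 18 regions, and SKG iNKT2 libraries fall to the floor of -1 or near it in regions 10 and 11 while staying high in region 12. Over the whole table, libraries of the 2 BALB/c subsets do not overlap, in either direction, in 71736 of 94823 regions. Pde10a was chosen on its difference between the subsets.

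No call of edgeR overlapped an annotated coding start. Of the 180 regions, 7 overlapped a protein-coding start, 3 at Pde4b, 2 at Pde4d and 1 each at Pde3b and Pde7a, and none at Pde10a. EdgeR called none of the 7 in any of the 5 tests (4, 4, 1, 3 and 2 had an unadjusted p under 0.05 in the tests between the BALB/c subsets, the SKG subsets, the genotypes in iNKT1, the genotypes in iNKT2 and the interaction), and their log2 changes ran from -1.28 to 1.75. In the same order, 21.9, 17.1, 1.01, 4.99 and 0.529% of all regions were called. With only 7 regions, 0 calls cannot be told from those shares. All 36, 30, 2 and 7 calls of the pairwise comparisons fell on the other 173 regions, which include Pde10a regions 4, 13 and 14, called between subsets and within 1 kb of a coding start without reaching it. The Pde4b start with the highest level, that of isoform Pde4b-203 (chr4:102569870-102571077), had 66.7 and 60.3 CPM in BALB/c iNKT1, 61.8 and 65.4 in SKG iNKT1, 46.5, 53.2 and 48.6 in BALB/c iNKT2, and 73.0, 63.5 and 61.7 in SKG iNKT2 libraries. At Pde7a the start (chr3:19309814-19312231) had 88.9 to 133 CPM in all 10 libraries, and its log2 changes between subsets were -0.28 and -0.30. The Pde4d start with the highest level, Pde4d-207 (chr13:109902403-109903507), had 72.6 to 76.6 CPM in iNKT1, 47.4 to 56.4 in BALB/c iNKT2 and 67.2 to 80.7 in SKG iNKT2 libraries. A second Pde4d start, Pde4d-203 (chr13:109926431-109926948), was higher in iNKT2 cells at 10.9 to 18.1 CPM, against 3.28 to 7.67 in iNKT1 libraries, with log2 changes of 1.03 (adjusted p = 0.0017) and 1.75 (6.2e-05), and the latter passed 4-fold, at 2.11, without SKG iNKT1 replicate 2.

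Other genes of the pathway were read from 8 lists of 64 genes, of which 60 had at least 1 of 817 regions. In BALB/c iNKT2 against iNKT1 cells, 101 of these regions were called higher and 47 lower (18.1%), with a median log2 change of -0.12. The same comparison in SKG gave 66 and 47 (13.8%), and the genotype comparisons gave 1 and 4 (0.612%) in iNKT1 and 0 and 29 (3.55%) in iNKT2 cells. Against the shares of all regions given above, these were lower in each of the 4 comparisons. The interaction called 1 and 4 (0.612%). By role, in the BALB/c subset comparison the Gs-coupled receptors had 8 higher and 12 lower of 135 regions, the G proteins 9 and 1 of 53, the adenylyl cyclases 12 and 0 of 79, the protein kinase A subunits and inhibitors 4 and 8 of 85, the Epac factors 8 and 0 of 46, the A-kinase anchors 30 and 7 of 164, and the CREB family with its coactivators 1 and 4 of 93. Of all regions, 15.5% were called higher and 6.36% lower there. Whether a role departs from those shares was not tested.

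The other cAMP phosphodiesterases had 29 higher and 15 lower of 162 regions in the BALB/c subset comparison (27.2%, against 21.9% of all regions). Most of these belonged to 2 genes. Pde7b, the paralog of Pde7a, had 22 of 27 regions called higher in BALB/c iNKT2 cells (median log2 change 2.79), opposite in direction to Pde7a, and 12 of 27 called lower in SKG iNKT2 than in BALB/c iNKT2 cells (median -1.99). Pde2a, a cGMP-stimulated enzyme, had 12 lower and 1 higher of 27 in BALB/c (median -1.69) and 11 and 1 in SKG (median -1.33). Among the anchors, Akap6 had 15 of 24 regions called higher in BALB/c iNKT2 cells (median 2.76) and 8 called lower in SKG iNKT2 cells (median -0.63). Further genes with the highest shares in BALB/c were Pkib, an inhibitor of protein kinase A (2 of 3 higher), Gnaz, an inhibitory G protein (4 of 7 higher), and Pde8a (2 higher and 1 lower of 8). In SKG they were Adcy6, an adenylyl cyclase (5 of 15 higher), Adrb1, a beta-adrenergic receptor (6 of 18 lower), and Rapgef4, which encodes Epac2 (8 of 28 higher). Apart from Pde7b and Akap6, Akap5 was the one listed gene with 2 or more regions called lower in SKG iNKT2 cells (2 of 24), and none of the 64 had a region called higher there.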

How the data were processed

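Insertion counts per region were deposited as 1 table by the authors, 94823 regions by 10 libraries, with mm10 coordinates. Although the table is named as normalized, its values are whole numbers with a different total in each library, so they were used as raw counts. Per the labels and the study's methods, the authors aligned reads with Bowtie 1.0, trimming with Trim Galore what did not map at first, dropped duplicates with Picard, called summits with MACS2 on short fragments in each library and merged them into 1 set of regions. Only regions that passed the peak caller in some library are therefore listed, and repeats with no unique alignment are not seen. A region can thus be listed only through the group where it is high.

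From the counts, edgeR 4.0.16 (R 4.3.3) was fitted to all regions and all 10 libraries with TMM factors and 1 mean per group, and its quasi-likelihood F test gave 5 comparisons, of the subsets within a genotype, of the genotypes within a subset, and of those changes with each other. P-values were adjusted by Benjamini-Hochberg over all regions, and a region was called at an adjusted p under 0.01 with at least a 4-fold change. CPM are insertions per 1000000 of the TMM-scaled total. The fit was tested on simulated data. Ratios have exact 95% intervals. No column of other samples was present. Totals were 14988590 to 36342635 insertions.

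Named regions were those over a coding start, those of largest change among called regions whose groups do not overlap (or of smallest p where none was called), every all-or-none region, and the nearest 3 regions on each side of the Pde4b cluster. Other pathway genes were named when in the top 6 by share of called regions with at least 2 called. Pde4b regions 8 and 37, Pde4d regions 1, 7 and 45, Pde7a regions 1 and 26, Pde10a regions 4, 9, 13, 14 and 16 and some values of a named region in a further comparison were added after their values were seen. Members, lists and motifs were chosen with earlier results of these data known. A listed marker and a motif are not reported here. Gene models were those of GENCODE M21, and sequences were read from the NCBI GRCm38.p6 genome.

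The labels do not state a pairing of libraries by replicate number. Between the genotypes, same-numbered iNKT2 libraries deviated from their group means with r of 0.455, 0.142 and 0.166 for replicates 1, 2 and 3. Unlike numbers gave similar or higher values, 0.147 for BALB/c replicate 2 with SKG replicate 3 and 0.224 for BALB/c replicate 3 with SKG replicate 2. Replicate 1 alone thus stood apart. Same-numbered iNKT1 libraries did not deviate together between the genotypes (r = -0.0022). Alternatives were DESeq2 1.42.0, its size factors, library totals, voom with limma 3.58.1 with and without quantile normalization, leaving out the 25% of regions with the fewest insertions, gene bodies alone, looser thresholds, other all-or-none limits, a replicate block and leaving out each library.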

Additional observations from a re-analysis of the deposited data

How the results depend on the processing

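Of the counts of called and all-or-none regions, 191 values under the alternatives stayed within 1.5 times the main count and 35 did not, and no named region reversed. BALB/c iNKT2 against iNKT1 cells gave 25 regions higher, but 12 without the 25% of regions with the fewest insertions, 14 with voom and quantile normalization and 41 at an adjusted p under 0.05 and 2-fold. Its 11 lower became 7 with library totals and 33 at the looser thresholds. In SKG the 24 higher became 11 and 14 with voom, with and without quantile normalization, and 58 at the looser thresholds, with 12 to 25 when 1 library was left out, and the 6 lower became 23. Between genotypes in iNKT1 cells, the looser thresholds gave 5 higher and 5 lower, against 2 and 0, and leaving out 1 library gave 0 to 1 lower. In iNKT2 cells the 3 higher became 9 with voom and quantile normalization and 14 at the looser thresholds, and the 4 lower became 1 without the regions of fewest insertions and 12 at the looser thresholds. The interaction went from 0 higher and 0 lower to 5 and 1 at the looser thresholds.

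With the replicate block, the comparison of the genotypes in iNKT2 cells kept its counts of 3 and 4. In other comparisons the block gave 1 region lower in SKG iNKT1 cells (Pde4d, chr13:109645622-109645921) and 1 in the interaction (Pde4d, chr13:109237946-109238274), both 0 without it. Between the SKG subsets it gave 18 higher in place of 24. Replicate 1 of both iNKT2 groups and SKG iNKT2 replicate 3 correlated best with the library of their own number, and the other 3 iNKT2 libraries did not.

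All-or-none counts also moved. For the BALB/c subsets the 2 became 1 with the low group at 0 insertions and 10 with up to 10, and ranged from 2 to 8 with 1 library left out. For the SKG subsets the 5 became 2 and 13 under those limits, 2 with a high group of at least 2 CPM, and 5 to 14 with 1 library left out. For the genotypes, the 1 in iNKT1 cells became 4 with up to 10 insertions and 1 to 3 with 1 library left out, and the 5 in iNKT2 cells became 3 at 0 insertions and 3 at 2 CPM. Fewer libraries or a looser limit admit more regions by construction; the cause of the other moves was not tested. Library totals moved the median log2 change of all regions from 0.06 to 0.34 between the BALB/c subsets, from 0.14 to 0.32 in SKG and from 0.01 to -0.12 between genotypes in iNKT2 cells. At 40 to 120 insertions in the median region, low regions carry wide errors.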
